A study of Arabidopsis thaliana with 27 samples.

Results

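The photolyase and cryptochrome family of Arabidopsis thaliana was followed across UV-B doses in dark-grown seedlings of 3 genotypes. The 5 genes were taken by locus from a table of raw counts per gene: PHR1 (AT1G12370), UVR3 (AT3G15620), CRY1 (AT4G08920), CRY2 (AT1G04400) and CRY3 (AT5G24850), 5 of 32832 loci. All 5 passed the filter on low counts and were among the 19794 genes tested. PHR1 is here the photolyase gene, not the phosphate starvation regulator that shares the symbol, and CRY3 carries the name CRYD in the deposited table.

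Photolyases are flavoproteins that bind a UV-made pyrimidine dimer in DNA and split it with the energy of blue or UV-A light, so that they need light to work even where the protein is present. PHR1 encodes the photolyase for cyclobutane pyrimidine dimers and UVR3 the photolyase for pyrimidine-pyrimidone photoproducts. Cryptochromes descend from photolyases but act mainly as blue-light receptors: CRY1 restrains hypocotyl growth, CRY2 promotes flowering and is degraded under blue light, and CRY3 encodes a cryptochrome of the DASH type that enters chloroplasts and mitochondria and can repair dimers in single-stranded DNA. Induction of PHR1 by light and by UV-B is known in Arabidopsis, through the UV-B receptor UVR8 and the bZIP factors HY5 and HYH.

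RNA came from hypocotyls of seedlings raised for 2.5 days without light on 0.5x MS medium that held 100 µM of the gibberellin GA4, an agent that every group received. Seedlings of xpf-3, uvr8-6 and wild type Columbia-0 (WT) stayed dark or were given 3000 or 30000 µmol m-2 of UV-B in exposures of about 5 or 45 min, and were taken 6 h later by the extraction protocol, although the series title gives 2 days. The line xpf-3 carries a mutation in UVH1, which encodes the XPF subunit of the endonuclease of nucleotide excision repair, and uvr8-6 one in the UV-B receptor gene UVR8. There were 9 groups of 3 libraries, 27 in all. The labels do not say that the libraries of a group came from separate cultures, so a p-value measures the spread between these libraries, which may be technical.

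Total counts ran from 4508097 to 11045334 in xpf-3, from 12488317 to 15342281 in uvr8-6 and from 6163441 to 11984665 in WT. The deposited notes assign the uvr8-6 libraries to a later sequencing run than the others, so that in a contrast of uvr8-6 with WT the run and the mutation cannot be told apart. UVR8 averaged 3.50 ± 0.945 CPM in uvr8-6 dark and 70.6 ± 0.994 CPM in WT dark (SD, n = 3 each), while UVH1 averaged 46.5 ± 6.25 CPM in xpf-3 dark and 19.2 ± 0.201 CPM in WT dark. A whole-gene count of UVH1 does not show whether the transcript is intact. CPM are counts per 1000000 counts of the TMM-scaled library total. Fold changes are log2 values ± SE from 1 edgeR quasi-likelihood fit of all groups, adjusted over all tested genes, and a gene is called at an adjusted p under 0.05.

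Libraries that stand apart were found in the dark groups. All 12 genes of a list of light and UV-B induced genes were highest in replicate 1 among the 3 WT dark libraries, and all 12 in replicate 2 among the 3 uvr8-6 dark libraries. In xpf-3 dark 11 of 12 were highest in replicate 1. Replicate 1 of xpf-3 was the highest for 5 of 12 after the low dose and for 6 of 12 after the high dose. It was kept in each treatment. WT replicate 1 was the highest for 9 of 12 after the low dose and for 6 of 12 after the high dose, and uvr8-6 replicate 2 for 11 of 12 after each dose. ELIP1, an early light-induced chloroplast protein gene that is a sensitive marker of light, stood at 2.41, 53.8 and 3.28 CPM in uvr8-6 dark and at 48.2, 11.6 and 17.1 CPM in WT dark. After 3000 µmol m-2, ELIP1 stood at 3.83, 99.4 and 4.45 CPM in uvr8-6 and at 100.3, 16.9 and 35.4 CPM in WT. After 30000 µmol m-2 it stood at 4.95, 91.1 and 7.91 CPM in uvr8-6 and at 62.1, 43.0 and 48.8 CPM in WT. The 3 WT libraries numbered 1 and the 3 uvr8-6 libraries numbered 2 were therefore left out together in an added fit, chosen after these values were seen, although the WT library of the high dose does not stand apart by this list, and its values stand beside each result that they change. A member that deviates with the listed genes is moved by this choice, so a call gained in the added fit is no independent support. Libraries of WT and uvr8-6 were left out but none of xpf-3, so the added fit treats the genotypes unequally. The endodermis genes CASP1 and CASP2, listed as root markers, summed to between 227 and 372 CPM in xpf-3 dark, between 107 and 193 CPM in uvr8-6 dark and between 246 and 360.1 CPM in WT dark. Root and hypocotyl endodermis cannot be told apart by these genes, and in bulk RNA fewer cells of a type and less RNA per cell cannot be told apart.

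On the TAIR10.1 assembly, PHR1 lies on chromosome 1 from 4206360 to 4208999 on the minus strand, UVR3 on chromosome 3 from 5293256 to 5296811 on the minus strand, CRY1 on chromosome 4 from 5723651 to 5727268 on the plus strand, CRY2 on chromosome 1 from 1185512 to 1188696 on the minus strand and CRY3 on chromosome 5 from 8535258 to 8538211 on the minus strand. All 5 are protein-coding genes, with exons that sum to 1788, 2287, 3018, 2728 and 1917 bases in that order. No stretch of 50 exonic bases of any member occurs at another place in the genome, so that reads of that length or longer without a mismatch have 1 place to go. The last 127 bases of PHR1 overlap the end of KEU (AT1G12360), a cytokinesis gene on the opposite strand. The libraries were stranded, but the strand setting of the authors' counting is not given in the sources used here.

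A stretch of 250 bases before the start of PHR1 was searched, on both strands, for letters that bear on light and damage control: the ACGT core shared by the sites of HY5 and other bZIP factors, the G-box CACGTG, the E2F sites TTTCCCGC, TTTCGCGC, TTTGCCGC and TTTGGCGC, and CTTNNNNNNNAAG, the site of the damage regulator SOG1. PHR1 held 2 ACGT cores, 1 of them within a G-box, and its window is shown because PHR1 is the member that rose with UV-B. The window is on the minus strand of TAIR10.1, at chr1:4209000-4209249, and is printed in the direction of transcription with the ACGT cores in capitals.
PHR1: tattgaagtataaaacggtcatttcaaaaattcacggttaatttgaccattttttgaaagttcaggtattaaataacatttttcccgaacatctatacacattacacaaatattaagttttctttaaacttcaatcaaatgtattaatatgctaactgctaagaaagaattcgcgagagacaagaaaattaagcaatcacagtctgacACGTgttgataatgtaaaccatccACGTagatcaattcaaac
The cores of PHR1 begin 42 and 18 bases before the gene start. An ACGT core was present in 44.1% of the 27443 promoter windows of this length in the genome and a G-box in 6.49%. The SOG1 letters, present in 9.71% of windows, and the E2F letters, present in 1.41%, were not in the window of PHR1, which says only that these letters are not there. The windows of the other members are not described here, so nothing in these letters is shown to be particular to PHR1. A match of letters is a description and no evidence of binding.

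The 5 transcripts stood at very different levels before UV-B. Per kilobase of exon, WT dark hypocotyls held 83.8 ± 11.7 CPM of CRY2, 40.3 ± 6.86 CPM of CRY1, 5.57 ± 4.81 CPM of CRY3, 1.72 ± 0.858 CPM of PHR1 and 0.958 ± 0.494 CPM of UVR3 (SD, n = 3 each). The photolyase transcripts were thus the rarest of the family on the scale of CPM per kilobase, and their precision is limited by low counts: a library held between 11 and 93 counts of PHR1 and between 8 and 44 counts of UVR3, against between 28 and 435 of CRY3, 229 and 1510 of CRY1, and 602 and 2823 of CRY2.

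**Figure D1:**
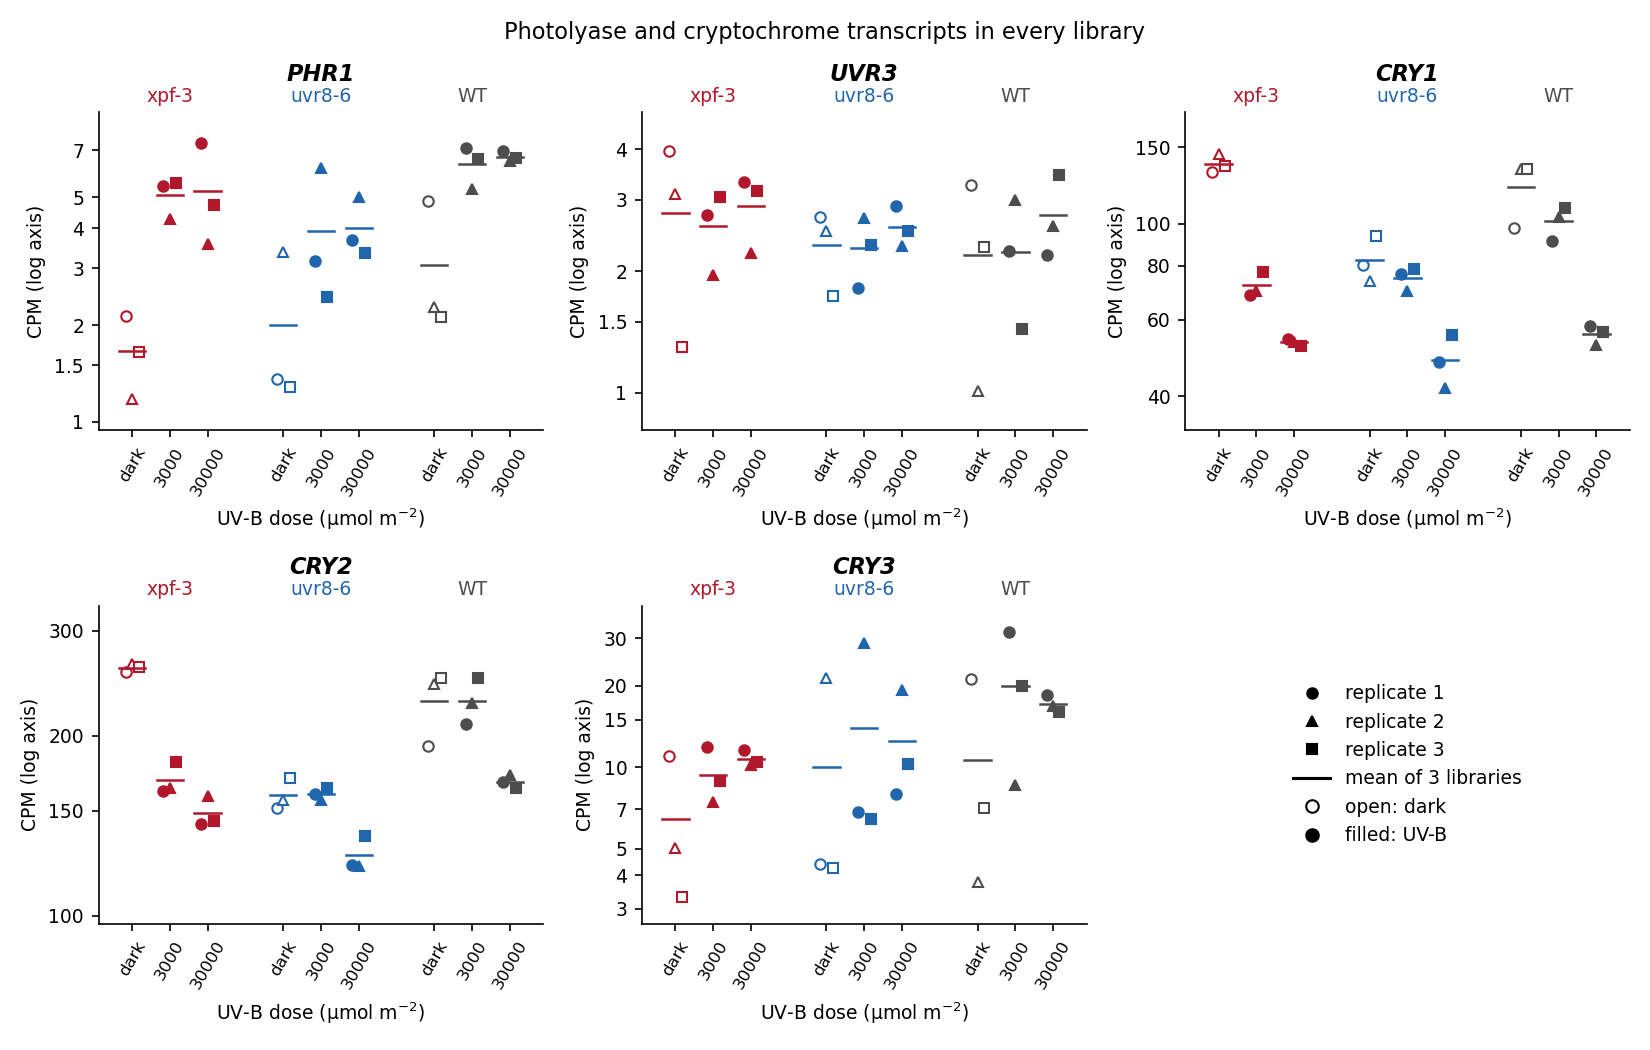
CPM of the 5 genes in each of the 27 libraries, on a log axis, by genotype and UV-B dose (µmol m-2); open symbols are dark libraries, the symbol shape is the replicate number and the bar is the mean of 3 libraries. PHR1 is lowest in the dark groups, CRY1 and CRY2 are lowest at 30000 µmol m-2, and the CRY3 panel shows replicate 2 of uvr8-6 and replicate 1 of WT above their groups in the dark.

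The number of members that passed was read against the share of all tested genes that did. In xpf-3 at the low dose 1 member was higher and 2 were lower than in the dark, where 67.3% of genes were called, 33.4% higher and 33.9% lower. At the high dose in xpf-3 the same counts, 1 higher and 2 lower, stood beside 73.3% of genes called, 37.8% higher and 35.5% lower. In uvr8-6 at the low dose 1 of 5 had an unadjusted p under 0.05, as did 3691 of 19794 genes. There 0 of 5 were called by edgeR and by DESeq2, where 5.51% of genes were called, 2.63% higher and 2.88% lower. These were 1090 genes, and 410 without uvr8-6 dark replicate 3. At the high dose in uvr8-6, 1 was higher and 2 were lower beside 57.7% of genes called, 32.2% higher and 25.4% lower. In WT, 1 was higher at the low dose, where 25.6% of genes were called, 12.9% higher and 12.7% lower, and 1 was higher and 2 were lower at the high dose, where 64.5% were called, 33.0% higher and 31.5% lower. Between the high and the low dose 1 member was called in xpf-3, 2 in uvr8-6 and 2 in WT, where 19.5%, 40.8% and 46.4% of genes were. With the replicate number as a block within genotype, the counts at the low dose were 1 in uvr8-6 and 3 in WT, and without the libraries that stand apart the WT count was also 3. With counts this near to those of all genes, in either direction, the family as a whole does not stand out. Where calls were made against dark, PHR1 was higher and CRY1 and CRY2 were lower.

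PHR1, the photolyase for the most abundant UV lesion, was higher after UV-B. It rose at both doses in xpf-3 and in WT and at the high dose in uvr8-6, by between 2.0 and 3.05 times, and the high and the low dose were not called different in any genotype. Among the xpf-3 libraries PHR1 stood at 2.14, 1.18 and 1.65 CPM in the dark, at 5.41, 4.27 and 5.52 CPM after 3000 µmol m-2 and at 7.34, 3.57 and 4.73 CPM after 30000 µmol m-2. Every UV-B library of xpf-3 was above every dark one. In uvr8-6 it stood at 1.36, 3.38 and 1.29 CPM in the dark, at 3.15, 6.14 and 2.44 CPM after the low dose and at 3.67, 5.00 and 3.35 CPM after the high dose. Replicate 2 was the highest uvr8-6 library in all 3 treatments, and its dark value lay above the lowest UV-B values. In WT it stood at 4.85, 2.27 and 2.12 CPM in the dark, at 7.11, 5.29 and 6.55 CPM after the low dose and at 6.96, 6.46 and 6.59 CPM after the high dose. The WT groups did not overlap with dark either, although replicate 1 of the dark group was above the other two.

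The log2 fold change of PHR1 against dark in xpf-3 was 1.61 ± 0.41 at 3000 µmol m-2 (adjusted p = 0.00149) and 1.60 ± 0.43 at 30000 µmol m-2 (adjusted p = 0.0019). In uvr8-6 it was 0.97 ± 0.37 at the low dose (adjusted p = 0.14) and 1.01 ± 0.37 at the high dose (adjusted p = 0.025). In WT it was 1.0 ± 0.37 at the low dose (adjusted p = 0.048) and 1.09 ± 0.37 at the high dose (adjusted p = 0.014). Between the high and the low dose the log2 fold change of PHR1 was -0.01 ± 0.38 in xpf-3, 0.03 ± 0.35 in uvr8-6 and 0.09 ± 0.36 in WT, none of them called, and in WT the 95% interval of that difference ran from -0.65 to 0.82. The data thus bound the further change of PHR1 over a dose 10 times higher without showing that it was absent.

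The call of PHR1 in WT at the low dose sits at the threshold. Its adjusted p was 0.055 with DESeq2 size factors or the authors' factors, 0.0525 without the low-count filter and 0.101 in a fit of the compared groups alone, and leaving out any 1 of WT dark replicate 2 or 3 or any WT library of that dose gave between 0.0672 and 0.211. Leaving out WT dark replicate 1 or the libraries that stand apart gave larger values, 1.52 and 1.45 ± 0.30 (adjusted p = 0.0012 for the last). At the high dose the call was lost in WT without dark replicate 2 (0.93) or 3 (0.86), and in uvr8-6 without dark replicate 1 (0.79) or 3 (0.77), without high-dose replicate 2 (0.82), without the low-count filter (0.91) and with the compared groups alone (0.95). The same-numbered libraries deviated together in WT at the low dose against dark and in the dose comparisons of uvr8-6, with every correlation over 0.1. In that WT comparison libraries of different number reached a correlation of 0.285, above the lowest of the same number, 0.133. Pairing by number is thus not settled. With the replicate number as a block within each genotype, PHR1 was also called in uvr8-6 at the low dose (0.97 ± 0.24, adjusted p = 0.015), as it was without uvr8-6 dark replicate 2 (1.55, adjusted p = 0.0184).

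The rise of PHR1 did not differ detectably between genotypes. The xpf-3 response minus the WT response was 0.61 ± 0.55 at the low dose (adjusted p = 0.43) and 0.51 ± 0.57 at the high dose (adjusted p = 0.632). For uvr8-6 minus WT it was -0.03 ± 0.55 and -0.08 ± 0.54, with 95% intervals from -1.18 to 1.11 and from -1.20 to 1.03. Intervals of this width leave room for a difference of more than 2 times in either direction, so a share of the PHR1 response that depends on UVR8 was not detectable at this depth and is not shown to be absent. The neighbour KEU, whose end overlaps that of PHR1, fell in xpf-3 (-0.57 ± 0.10 at the low dose, -0.45 ± 0.10 at the high dose) and had values of -0.11 ± 0.10 and -0.14 ± 0.10 in WT, which were not called. Whether reads from KEU enter the counts of PHR1 was not tested.

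UVR3, the photolyase for the pyrimidine-pyrimidone lesion, was not called in any of the 15 comparisons. With edgeR 0 of 15 passed, 0 of 15 had an unadjusted p under 0.05, and DESeq2 also called 0. Its libraries ran from 1.30 to 3.96 CPM in xpf-3 dark, from 1.95 to 3.06 CPM after the low dose and from 2.21 to 3.31 CPM after the high dose. In uvr8-6 they ran from 1.74 to 2.71, from 1.81 to 2.71 and from 2.31 to 2.90 CPM in the same order of treatments, and in WT from 1.01 to 3.26, from 1.44 to 3.00 and from 2.19 to 3.47 CPM. The 9 group means lay within 1.32 times of each other and each overlapped its neighbours in rank. The log2 fold change in WT was -0.02 ± 0.37 at the low dose, with a 95% interval from -0.79 to 0.75, and 0.29 ± 0.38 at the high dose, with an interval from -0.49 to 1.07. At this depth the upper bound at the high dose in WT lies above a change of 2 times. In xpf-3 the intervals ran from -0.87 to 0.66 and from -0.78 to 0.81, and in uvr8-6 from -0.74 to 0.69 and from -0.56 to 0.86.

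**Figure D2:**
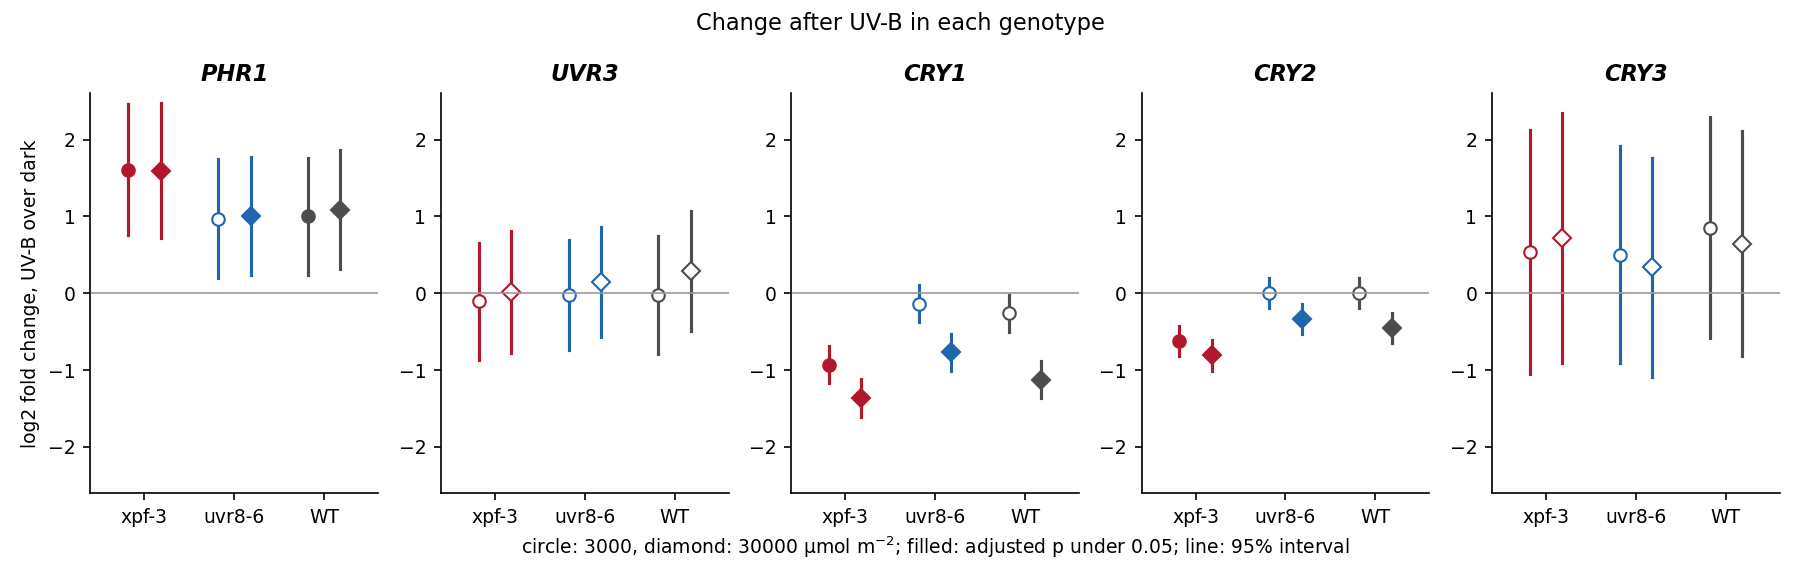
Log2 fold change of UV-B over dark for the 5 genes in xpf-3, uvr8-6 and WT, with 95% intervals of the edgeR fit; circles are 3000 and diamonds 30000 µmol m-2, and filled symbols have an adjusted p under 0.05. PHR1 lies above 0 in all 6 comparisons with 5 of them called, CRY1 and CRY2 lie below 0 at the high dose in every genotype, and the intervals of UVR3 and CRY3 cross 0 throughout.

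CRY1, the main blue-light receptor of hypocotyl growth, fell with dose. It fell at the high dose in all 3 genotypes, to 0.388 of its dark level in xpf-3, 0.588 in uvr8-6 and 0.459 in WT, and in xpf-3 it had already fallen to 0.525 at the low dose. The xpf-3 libraries held 132, 144 and 136 CPM in the dark, 68.5, 70.1 and 77.5 CPM after 3000 µmol m-2 and 54.2, 53.4 and 52.1 CPM after 30000 µmol m-2. These 3 groups were well separated and fell in order of dose. The uvr8-6 libraries held 80.3, 73.6 and 93.6 CPM in the dark, 76.7, 69.9 and 78.5 CPM after the low dose and 48.1, 41.8 and 55.5 CPM after the high dose. There the dark and low-dose libraries overlapped and the high-dose libraries were all lower. The WT libraries held 97.6, 133 and 134 CPM in the dark, 91.4, 104 and 109 CPM after the low dose and 58.2, 52.7 and 56.2 CPM after the high dose. As in uvr8-6, the WT low-dose libraries overlapped with dark, through dark replicate 1, and the high-dose libraries lay below both.

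The log2 fold change of CRY1 against dark was -0.93 ± 0.12 at the low dose (adjusted p = 3.36e-07) and -1.37 ± 0.12 at the high dose (adjusted p = 9.26e-10) in xpf-3. It was -0.14 ± 0.12 (adjusted p = 0.592) and -0.77 ± 0.12 (adjusted p = 8.05e-06) in uvr8-6. It was -0.26 ± 0.12 (adjusted p = 0.103) and -1.12 ± 0.12 (adjusted p = 2e-08) in WT. From the low to the high dose CRY1 fell further in each genotype, with log2 changes of -0.44 ± 0.12 in xpf-3 (adjusted p = 0.0135), -0.63 ± 0.12 in uvr8-6 (adjusted p = 0.000172) and -0.86 ± 0.12 in WT (adjusted p = 2.66e-06). The further fall in xpf-3 lost its call without xpf-3 low-dose replicate 3 (-0.38, adjusted p = 0.0605). In WT at the low dose CRY1 was called lower without WT dark replicate 1 (-0.40, adjusted p = 0.00794), without the libraries that stand apart (-0.31, adjusted p = 0.0224) and with the block within genotype (-0.26, adjusted p = 0.0443).

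CRY2, the blue-light receptor with a role in flowering, fell less than CRY1 on the log2 scale and in the same comparisons against dark. It fell in xpf-3 at both doses and in uvr8-6 and WT at the high dose, to between 0.57 and 0.793 of the dark level. Libraries of xpf-3 held 256, 264 and 261 CPM in the dark, 162, 163 and 181 CPM after the low dose and 142, 159 and 144 CPM after the high dose. The dark libraries were above all others of the genotype, and the treated groups did not overlap with each other by a small margin. Libraries of uvr8-6 held 151, 156 and 169.7 CPM in the dark, 159.9, 156 and 164 CPM after the low dose and 121, 121 and 136 CPM after the high dose. Libraries of WT held 192, 244 and 249.6 CPM in the dark, 209.5, 227 and 249.8 CPM after the low dose and 167, 172 and 164 CPM after the high dose. In both of these genotypes dark and low-dose libraries overlapped and the high-dose libraries were the lowest.

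The log2 fold change of CRY2 against dark was -0.63 ± 0.09 (adjusted p = 4.23e-06) at the low dose and -0.81 ± 0.10 (adjusted p = 8.21e-08) at the high dose in xpf-3. In uvr8-6 it was 0.01 ± 0.09 (adjusted p = 0.983) and -0.34 ± 0.09 (adjusted p = 0.00424), and in WT 0.00 ± 0.09 (adjusted p = 0.993) and -0.45 ± 0.09 (adjusted p = 0.00025). The low-dose value in WT is bounded closely, with a 95% interval from -0.19 to 0.20. Against the low dose, the high dose gave -0.18 ± 0.10 in xpf-3 (adjusted p = 0.176), -0.34 ± 0.09 in uvr8-6 (adjusted p = 0.00623) and -0.45 ± 0.09 in WT (adjusted p = 0.000455). The first of these was called without xpf-3 high-dose replicate 2 (-0.31, adjusted p = 0.0363).

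At the low dose both blue-light receptor genes fell more in xpf-3 than in WT. The xpf-3 response minus the WT response was -0.67 ± 0.16 for CRY1 (adjusted p = 0.00479) and -0.63 ± 0.13 for CRY2 (adjusted p = 0.00162), so 2 of the 5 members were called where 29.6% of tested genes were. These were 5854 genes, and 3357 without WT dark replicate 1. Both calls held in every alternative fit, with values for CRY1 from -0.74 to -0.53 and for CRY2 from -0.70 to -0.48 as single libraries were left out. At the high dose the difference was -0.24 ± 0.17 for CRY1 (adjusted p = 0.389) and -0.36 ± 0.13 for CRY2 (adjusted p = 0.0879), and 0 of 5 members were called by edgeR against 9.34% of genes. These were 1849 genes, and 177 without WT dark replicate 1. CRY2 was there the 1 member with an unadjusted p under 0.05, which 4955 of 19794 genes also had. It was also the 1 member called by DESeq2 (adjusted p = 0.0247), and with a replicate block its adjusted p was 0.0485. For uvr8-6 minus WT edgeR and DESeq2 both called 0 of 5 members at either dose, where 0.788% of genes were called after 3000 and 8.21% after 30000 µmol m-2. No member at the low dose and 1 at the high dose, CRY1 with 0.36 ± 0.17, had an unadjusted p under 0.05. Of the 19794 tested genes 1629 had one at the low dose and 4581 at the high dose. That CRY1 value was called without WT dark replicate 1 (0.50, adjusted p = 0.0341) and without the libraries that stand apart (0.48, adjusted p = 0.0339).

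Genotypes were also compared without UV-B. Between xpf-3 dark and WT dark, edgeR and DESeq2 called 0 of the 5 members, where 0.167% of tested genes were called. PHR1 alone of the 5 had an unadjusted p under 0.05 (-0.91 ± 0.42, adjusted p = 0.282), as did 3307 of the 19794 tested genes. In uvr8-6 dark 2 of 5 members were lower than in WT dark, where 31.4% of genes differed and 17.2% were lower (6223 genes differed, and 3668 without WT dark replicate 3): CRY1 with a log2 difference of -0.56 ± 0.12 (adjusted p = 0.00123) and CRY2 with one of -0.52 ± 0.09 (adjusted p = 0.000442). For CRY1 all 3 uvr8-6 dark libraries were below all 3 WT dark libraries, by a narrow margin at WT replicate 1, and in a fit of the compared groups alone its adjusted p was 0.0579. For CRY2 they were also below, and the sequencing run differs in the same way as the genotype. PHR1 was at -0.66 ± 0.39 (adjusted p = 0.205) and CRY3 at -0.14 ± 0.70 (adjusted p = 0.899), and with the block within genotype both were called lower, at -1.25 (adjusted p = 0.00947) and -1.71 (adjusted p = 0.0153). In the same contrast STM, a meristem gene, was higher in uvr8-6 dark by 1.94 (adjusted p = 8.21e-05), the seed gene EM1 by 3.14 (adjusted p = 0.00399) and the hook gene HLS1 by 1.75 (adjusted p = 0.00144), while EXPA8, an expansin gene, was lower at -1.37 (adjusted p = 0.00549) and CASP2 at -1.07 (adjusted p = 0.0232). By list, 1 of 5 shoot apex and stomata markers was called higher and 0 lower, and 1 of 4 root markers lower. Of 4 seed markers 2 were higher, with a list median of 0.33, and of 6 dark-growth genes 1 was higher and 1 lower. Beside the 31.4% of all genes that differed, these counts are not read as responses of the lists. The 5 shoot apex and stomata markers summed to between 13.7 and 22.1 CPM in uvr8-6 dark and between 3.79 and 12.1 CPM in WT dark. The part of these shifts in the values of CRY1 and CRY2 was not tested. The PHR1 and CRY3 values with the block come from a fit in which replicates 2 and 3 of each genotype have terms of their own. A contrast between genotypes there compares the fitted levels of replicate 1, which stands apart in WT but not in uvr8-6. The numbering of the libraries thus enters the PHR1 and CRY3 values, which are not read as differences between genotypes. Without the libraries that stand apart neither was called (PHR1 -0.69, adjusted p = 0.12; CRY3 -0.34, adjusted p = 0.597).

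CRY3, the cryptochrome of chloroplasts and mitochondria, varied widely between the libraries of the dark and low-dose groups. The xpf-3 libraries held 11.0, 5.04 and 3.31 CPM in the dark, 11.9, 7.44 and 8.88 CPM after the low dose and 11.6, 10.2 and 10.5 CPM after the high dose. The uvr8-6 libraries held 4.38, 21.3 and 4.25 CPM in the dark, 6.85, 28.7 and 6.46 CPM after the low dose and 7.98, 19.3 and 10.3 CPM after the high dose. Replicate 2 of uvr8-6 stood far above its group in all 3 treatments. The WT libraries held 21.2, 3.79 and 7.07 CPM in the dark, 31.6, 8.64 and 19.9 CPM after the low dose and 18.5, 16.8 and 16.0 CPM after the high dose. Replicate 1 of WT was the highest library of each treatment, and at the high dose its lead was small.

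With all libraries CRY3 was not called in any of the 15 comparisons by edgeR or DESeq2, and 0 of 15 had an unadjusted p under 0.05. The log2 fold changes against dark were 0.54 ± 0.76 and 0.72 ± 0.78 in xpf-3, 0.50 ± 0.68 and 0.34 ± 0.68 in uvr8-6 and 0.85 ± 0.69 and 0.64 ± 0.70 in WT, at the low and the high dose. Without the libraries that stand apart CRY3 was called higher in WT at both doses, by 1.37 ± 0.43 (adjusted p = 0.0234) and 1.54 ± 0.44 (adjusted p = 0.00539). Those libraries were picked by genes such as ELIP1, with which CRY3 deviated together (r of 0.905), and WT dark replicate 1 held the most CRY3 of its group. The choice thus bears on the size of the change, and the calls of this fit are no independent support for a rise. In that fit the values for xpf-3 were 0.62 ± 0.36 (adjusted p = 0.137) and 0.76 ± 0.37 (adjusted p = 0.0739), and for uvr8-6 0.60 ± 0.43 (adjusted p = 0.524) and 1.01 ± 0.42 (adjusted p = 0.052). With the block within genotype CRY3 was called in WT as well, by 0.96 ± 0.35 at the low dose (adjusted p = 0.0494) and 0.90 ± 0.37 at the high dose (adjusted p = 0.0411), of which only the low-dose comparison met the pairing check.

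Across the libraries CRY3 deviated together with ELIP1. Each library's log2 CPM was taken as its deviation from its group mean, so that genotype and dose do not enter, and the 27 deviations were compared between genes, as a description, since libraries share runs and groups share means. CRY3 and ELIP1 had a Pearson r of 0.905 and a Spearman rho of 0.889 over 27 libraries. The r was 0.857 without the 2 libraries farthest from the median and 0.877 over the 21 libraries left without those that stand apart. PHR1 and ELIP1 had an r of 0.774 and a rho of 0.684, and an r of 0.136 over the 21 libraries, so this relation rests on the libraries that stand apart. CRY1 ran the other way with an r of -0.664, which was 0.0969 over the 21 libraries. UVR3 had an r of 0.227 and CRY2 one of -0.357.

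**Figure D3:**
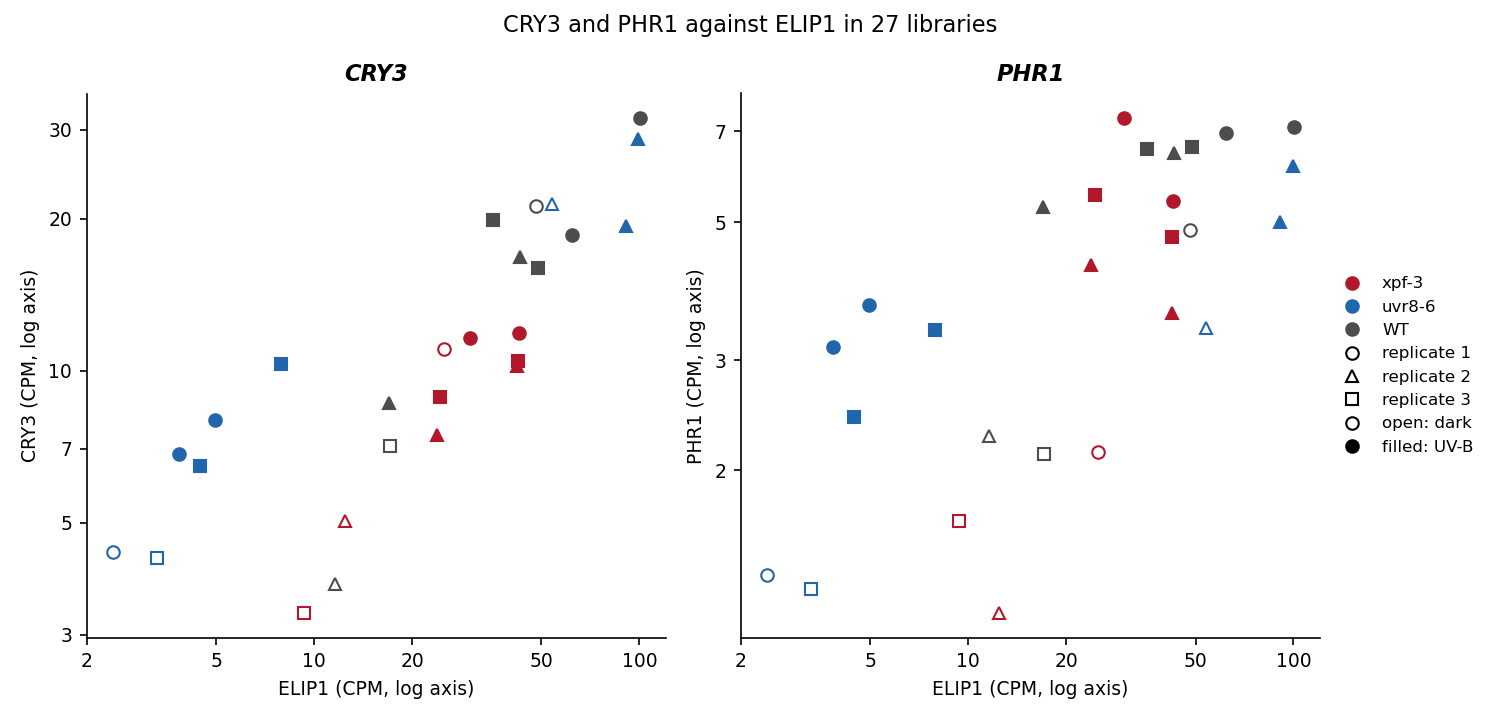
CRY3 (left) and PHR1 (right) against ELIP1 in each of the 27 libraries, in CPM on log axes; colour is the genotype, symbol shape the replicate number and open symbols are dark libraries. CRY3 is higher in libraries with more ELIP1 within each genotype, with the uvr8-6 libraries numbered 1 and 3 at the low end of ELIP1 and the libraries that stand apart at the high end.

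SPA1, a kinase-like partner of the ubiquitin ligase COP1 and of the cryptochromes, gave a closer relation and was singled out after its values were seen. Its deviations had an r of 0.957 with those of CRY3, 0.922 over the 21 libraries, and an r of 0.888 with those of PHR1, 0.604 over the 21 libraries. PHR1 and CRY3 had an r of 0.847 with each other, 0.419 over the 21 libraries. CRY1 and CRY2 had an r of 0.833, which was 0.749 over the 21 libraries.

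The groups were ordered by mean level for each member. For PHR1 the order ran from 6.67 ± 0.256 CPM in WT at the high dose to 1.66 ± 0.48 CPM in xpf-3 dark, with the 6 UV-B groups above the 3 dark groups, but every group overlapped the next in rank. For CRY1 it ran from 137 ± 6.49 CPM in xpf-3 dark to 48.5 ± 6.83 CPM in uvr8-6 at the high dose, and 1 of the 8 steps in rank had no overlap, between xpf-3 at the low dose and WT at the high dose, so that the 3 high-dose groups lay below all others. For CRY2 it ran from 260.3 ± 4.33 CPM in xpf-3 dark to 126 ± 8.37 CPM in uvr8-6 at the high dose, with 4 of 8 steps free of overlap. For CRY3 and UVR3 no step was. The genes whose 9 group means on the log2 scale were most like those of PHR1 were HYH, the partner of HY5 (r = 0.974), GLE1 (r = 0.965) and NUP98B (r = 0.961), the last a nuclear pore gene. For CRY1 they were GRH1 (r = 0.997), P4H4 (r = 0.996) and LOG2 (r = 0.996), for CRY2 PUX7 (r = 0.994), TPLATE (r = 0.991) and ATG4B (r = 0.991), for CRY3 CYP72A15 (r = 0.953), GLE1 (r = 0.934) and MEI1 (r = 0.934), and for UVR3 AT5G03610 (r = 0.986), SGT1B (r = 0.959) and ADK1 (r = 0.947), all over 9 groups. With 19794 genes to choose from, high values are found for any pattern, and for UVR3, whose groups all overlap, the pattern is within the spread of libraries.

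Of 5 genes listed (HY5 and HYH, DET1, DEL1 and E2FC), all 5 were tested, and 3 rose in xpf-3 at the low dose and 4 at the high dose, 0 of 5 passed in uvr8-6 at the low dose and 4 rose at the high dose, and 2 rose in WT at each dose, with none called lower. Of all tested genes 33.4% and 37.8% rose in xpf-3 at the low and the high dose, 2.63% and 32.2% in uvr8-6, and 12.9% and 33.0% in WT, and counts among 5 genes are not read as a response of the list beside these shares. E2FC, a repressor of the E2F family, rose in xpf-3 by 1.10 ± 0.12 at the low dose (adjusted p = 4.08e-08). DET1, a repressor of light responses, rose there by 0.60 ± 0.11 at the high dose (adjusted p = 5.77e-05). HYH rose in WT by 3.26 ± 0.66 at the high dose (adjusted p = 0.000205), while HY5 was at -1.44 in WT and -1.07 in xpf-3 at that dose and was not called. HYH also rose at that dose in xpf-3 by 3.71 ± 0.78 (adjusted p = 0.000235) and in uvr8-6 by 1.80 ± 0.64 (adjusted p = 0.0211). In uvr8-6 at the low dose HYH was at 1.15 ± 0.65 and was not called (adjusted p = 0.369). DEL1, known to repress PHR1 in Arabidopsis, rose at the high dose in xpf-3 by 0.52 ± 0.22 (adjusted p = 0.0351) and in uvr8-6 by 0.69 ± 0.20 (adjusted p = 0.00496). In WT it was at 0.14 ± 0.21 at that dose and was not called (adjusted p = 0.593). PHR1 was called higher at that dose in all 3 genotypes.

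Among 12 light and UV-B induced genes, 5 rose and 1 fell in xpf-3 at each dose, 1 rose in uvr8-6 at the low dose and 3 rose and 1 fell there at the high dose, and in WT 3 rose at the low dose and 5 rose and 1 fell at the high dose. Beside the shares of all genes that rose, 33.4% and 37.8% in xpf-3, 2.63% and 32.2% in uvr8-6 and 12.9% and 33.0% in WT, these counts are not read as particular to the list. CHS, the first enzyme of flavonoid synthesis, had no count in any of the 3 xpf-3 dark libraries and stood at 33.9, 35.9 and 28.8 CPM in xpf-3 after the low dose and at 47.1, 31.0 and 46.0 CPM after the high dose. FLS1, flavonol synthase, rose there at the high dose by 6.25 ± 0.60 (adjusted p = 3.62e-09). ELIP2 stood at 20.6, 20.9 and 73.5 CPM in xpf-3 after the high dose, against 0.428, 0.107 and 0.118 CPM in xpf-3 dark. RUP1, a repressor of UVR8, fell in xpf-3 at the high dose by 3.79 ± 0.72 (adjusted p = 9.61e-05). It was also called lower at that dose in WT (-3.27 ± 0.69, adjusted p = 0.000363) and in uvr8-6 (-2.54 ± 0.69, adjusted p = 0.00369). In the difference of responses, CHS and FLS1 were the 2 of 12 called lower in uvr8-6 than in WT at each dose, where 0.530% of all genes were called lower at the low dose and 3.73% at the high dose. The differences at the low dose were -4.25 ± 0.84 for CHS (adjusted p = 0.0183) and -3.28 ± 0.70 for FLS1 (adjusted p = 0.0234), beside the uncalled -0.03 ± 0.55 for PHR1.

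Partners of the cryptochromes were taken as a list of 17 genes, of which 16 were tested. Against dark, 1 rose and 9 fell in xpf-3 at the low dose and 2 rose and 7 fell at the high dose. In uvr8-6, 0 rose and 1 fell at the low dose and 1 rose and 3 fell at the high dose. In WT, 1 rose and 3 fell at the low dose and 3 rose and 6 fell at the high dose. Of all tested genes 33.9% and 35.5% fell in xpf-3 at the low and the high dose, 2.88% and 25.4% in uvr8-6, and 12.7% and 31.5% in WT, so nothing particular to the list is read from its counts. The list's median log2 fold change was -0.30 in xpf-3 at the low dose, beside -0.01 over all genes tested, and -0.13 in WT at the high dose, beside 0.03. CIB2, a bHLH factor whose relative CIB1 binds CRY2, fell in WT by 3.42 ± 0.31 at the high dose (adjusted p = 1.77e-09). SPA2, a partner of COP1, fell in xpf-3 at the low dose by 0.82 ± 0.11 (adjusted p = 7.89e-07), and PIF4, a growth-promoting factor that both cryptochromes bind, fell by 1.78 ± 0.24 (adjusted p = 8.21e-07). AT5G18190, annotated as a protein kinase, fell in xpf-3 at the high dose by 0.64 ± 0.09 (adjusted p = 9.1e-07). The difference of responses at the low dose was called lower in xpf-3 for 5 of the 16 and higher for 0, where 17.8% of all tested genes were called lower and 11.8% higher.

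The fall of CRY1 and CRY2 was set beside the other photoreceptor genes. Of 11 listed, all tested, 1 rose and 6 fell in xpf-3 at the low dose and 2 rose and 6 fell at the high dose. In uvr8-6 none passed at the low dose, and 2 rose and 4 fell at the high dose. In WT none passed at the low dose, and again 2 rose and 4 fell at the high dose. At the high dose 35.5% of all tested genes fell in xpf-3, 25.4% in uvr8-6 and 31.5% in WT, and at the low dose 33.9%, 2.88% and 12.7% did, so the counts are not read as a response of photoreceptor genes as a group. PHOT1, the phototropin of the phototropic response to dim blue light, fell in WT at the high dose by 1.28 ± 0.17 (adjusted p = 5.3e-07), beside -1.12 ± 0.12 for CRY1. Its relative PHOT2 rose in WT at that dose by 0.64 (adjusted p = 0.0128). PHYB, the main phytochrome of light-grown plants, fell in xpf-3 at the high dose by 1.04 ± 0.13 (adjusted p = 2.9e-07), PHYA, the phytochrome of dark-grown seedlings, fell by 0.60 ± 0.12 at the low dose (adjusted p = 9.88e-05), and LKP2, an F-box blue-light receptor of the clock, fell by 0.90 ± 0.14 at the high dose (adjusted p = 3.02e-06). In uvr8-6 dark 6 of 11 were lower than in WT dark, 1 of them UVR8 itself, where 17.2% of all genes were. The xpf-3 response at the low dose minus that of WT was called lower for 4 of 11 (PHYA, PHYB, PHOT1 and ZTL) and higher for 0, where 17.8% of all genes were called lower and 11.8% higher.

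**Figure D4:**
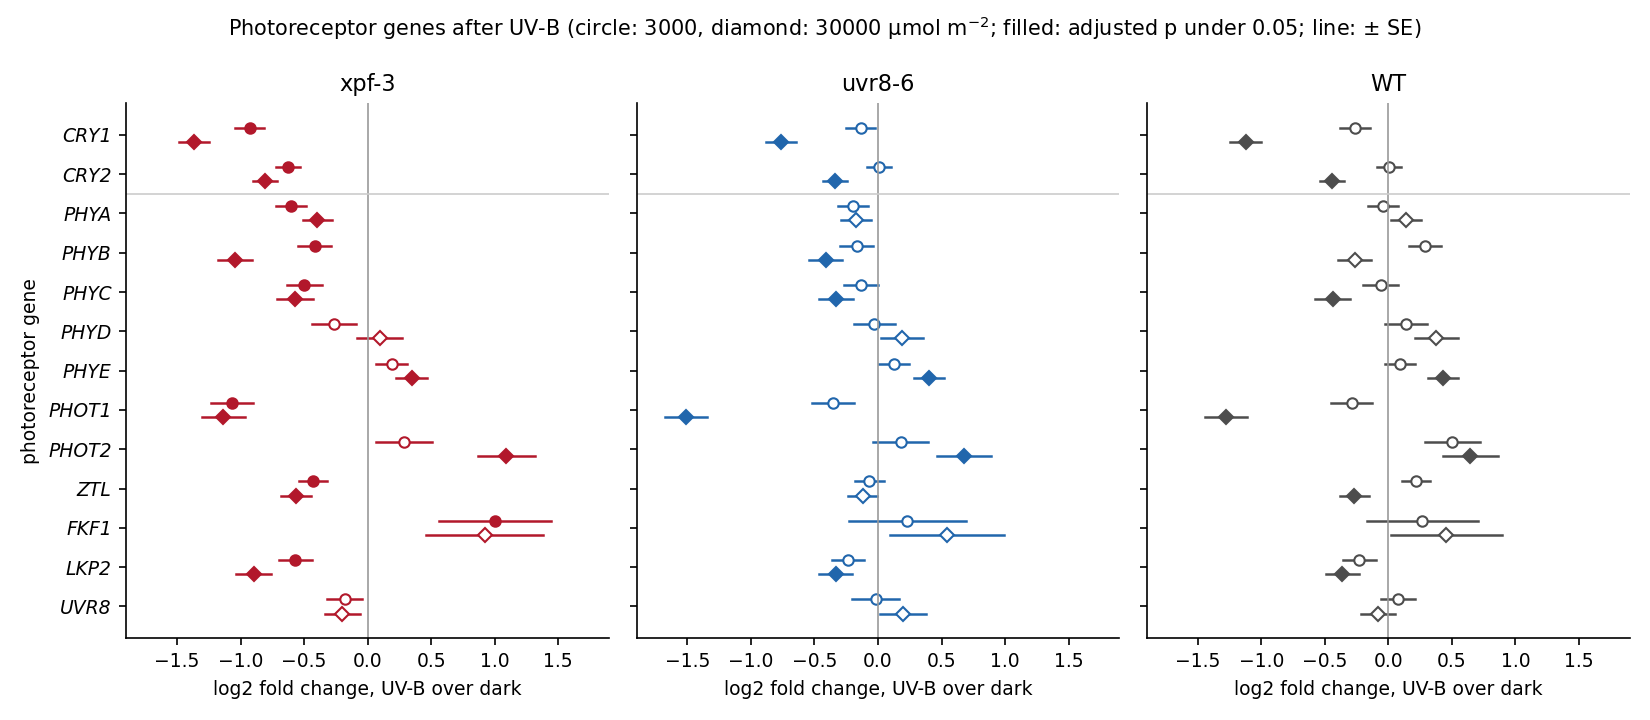
Log2 fold change of UV-B over dark (± SE of the fit) for CRY1, CRY2 and 11 other photoreceptor genes in xpf-3, uvr8-6 and WT; circles are 3000 and diamonds 30000 µmol m-2, and filled symbols have an adjusted p under 0.05. CRY1, CRY2, PHOT1, PHYC and LKP2 are called lower at the high dose in all 3 genotypes, PHOT2 and PHYE are called higher, and the low dose gives filled symbols in xpf-3 alone.

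Marker genes of other cells moved with the same contrasts. CASP1 and CASP2 summed to between 20.6 and 42.4 CPM in xpf-3 after the low dose and between 15.04 and 50.1 CPM after the high dose, and in WT to between 37.3 and 57.8 CPM and between 7.73 and 17.3 CPM, all below the dark sums. In uvr8-6 they summed to between 84.6 and 143 CPM after the low dose, overlapping with dark, and between 5.09 and 19.6 CPM after the high dose. Of the 4 root markers, 3 were called lower in xpf-3 at the low dose and 2 at the high dose, 1 and 2 in uvr8-6, and 3 and 2 in WT. Among all tested genes 33.9% and 35.5% were lower in xpf-3, 2.88% and 25.4% in uvr8-6 and 12.7% and 31.5% in WT. Counts among 4 genes are not read as a response of the list beside these shares. CASP2 fell in WT at the high dose by 4.98 ± 0.47 on the log2 scale. The abundant root glucosidase gene PYK10 fell in WT by 0.60 ± 0.10 at the low dose. At the high dose PYK10 was at -0.15 ± 0.10 in WT and was not called (adjusted p = 0.189). The 4 root markers, PYK10 included, summed to between 17709.9 and 19616 CPM in xpf-3 at the high dose against between 18056 and 19144 CPM in xpf-3 dark, and to between 12023 and 13354 CPM in WT at the high dose against between 14202 and 14575 CPM in WT dark.

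Markers of the shoot apex and of stomata, 5 genes, were at or below 30.8 CPM in sum in every library. All 5 were called higher in xpf-3 at both doses, beside 33.4% and 37.8% of all genes, and they summed to between 6.71 and 9.22 CPM and between 14.9 and 19.3 CPM, against between 1.77 and 3.21 CPM in xpf-3 dark. STM, a meristem factor, rose there by 2.33 ± 0.33 at the high dose and SPCH, a stomatal factor, by 4.33 ± 0.90. Seed markers, 4 genes, summed to at most 18.2 CPM. The 6 genes of dark growth summed to between 789 and 1122 CPM in xpf-3 and between 759 and 1151 CPM in WT after the low dose, below dark in both (between 1480.1 and 1814 CPM in xpf-3, between 1336 and 1611 CPM in WT). After the high dose they summed to between 1381 and 1589 CPM in xpf-3, overlapping with dark, and to between 566 and 639 CPM in WT, below dark. In uvr8-6 they summed to between 923 and 1380.3 CPM in the dark, between 648 and 1195 CPM after the low dose and between 871 and 1480.2 CPM after the high dose, with all 3 groups overlapping. IAA19, an auxin-induced gene, fell in xpf-3 at the high dose by 3.57 ± 0.26 and EXPA8, an expansin, fell by 4.57 ± 0.40, while the chlorophyll synthesis gene PORA rose by 3.42 ± 0.55. Whether shifts in cell types have a part in the changes of PHR1, CRY1 and CRY2 was not tested.

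Polymerases that copy past UV lesions were listed as the alternative to repair by photolyase. Of 5 tested, 1 rose at both doses in xpf-3 and in WT, 0 and 1 in uvr8-6 at the low and high dose, and none was called lower. With 33.4% and 37.8% of all genes higher in xpf-3 at the low and the high dose, 2.63% and 32.2% in uvr8-6 and 12.9% and 33.0% in WT, 1 of 5 is not read as a response of the list. POLK rose in xpf-3 at the low dose by 0.51 ± 0.12 (adjusted p = 0.000855), and REV1 was higher in WT at the high than at the low dose by 0.40 ± 0.14 (adjusted p = 0.0236). POLH, whose product passes cyclobutane dimers, had values of 0.34 in xpf-3 and 0.28 in WT at the high dose and was not called.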

How the data were processed

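The authors deposited raw counts per gene, and a second table of signal values that equal those counts divided by 1 factor per library (largest difference 4.9e-10), per the file headers. The submitters' processing notes name FastQC, Trimmomatic, HISAT2 and DESeq2 without versions, and the sources used here give neither the genome build nor the counting strand. TruSeq stranded libraries were made, per the labels' protocols.

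Counts were fitted with edgeR 4.0.16 in R 4.3.3 (limma 3.58.1): low counts were filtered with filterByExpr, library sizes scaled by TMM, and 1 robust quasi-likelihood model of the 9 groups fitted (18 residual degrees of freedom), with two-sided tests and p-values adjusted by Benjamini-Hochberg across the 19794 genes left. Differences of responses are interaction contrasts in that fit. All differences against dark within a genotype share its dark libraries, and the differences of responses share the WT libraries. On simulated counts for WT at 3000 µmol m-2 against dark (19683 genes), 63% of 2-fold and 98% of 4-fold changes were recovered, with 6 false calls. The simulation changed 100 genes of each size, none of them among the lowest in level, while 25.6% of genes were called in the real comparison. These rates are therefore not the power for PHR1 or UVR3. Alternatives were DESeq2 1.42.0, its size factors, no filter, a replicate block, the compared groups alone and leaving out each library, and, chosen after seeing the data, the authors' factors, a block within genotype and a fit without the libraries that stand apart.

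The same-numbered libraries deviated together, with every correlation over 0.1, in WT at 3000 µmol m-2 against dark (lowest 0.133) and in the 3 dose comparisons of uvr8-6 (lowest 0.156). The highest correlation between libraries of different number was 0.285 in that WT comparison. In uvr8-6 it was 0.196 for low dose against dark, 0.173 for high dose against dark and 0.0768 for high against low dose. In all but the last of these it was above the lowest same-numbered value, so the check does not settle the pairing. This pairing comes from the data, since the labels do not say what a number marks. The members and the gene lists were chosen with earlier results of these data known. Named list genes are up to 4 per list with the smallest p among those that pass in a dose contrast of WT or xpf-3, and the genes most like a member are the 3 with the highest Pearson r over the 9 group means. ELIP1, SPA1, HY5, PHOT2, PHYC, PHYE, ZTL, POLH and KEU were named after their values were seen. One listed root marker and the upstream windows of the members other than PHR1 are not reported here. Coordinates and the upstream sequence are from RefSeq's TAIR10.1, to which 32547 of 32832 loci matched by locus.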

Additional observations from a re-analysis of the deposited data

Results flagged for a closer look

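The difference between genotypes in the response to 3000 µmol m-2 was called for CRY1 and for CRY2, which marks both for a closer look. The xpf-3 response minus the WT response was -0.67 for CRY1 and -0.63 for CRY2 on the log2 scale, so both blue-light receptor genes fell more in xpf-3 at the low dose. For CRY1, all 3 xpf-3 libraries after the low dose (68.5, 70.1 and 77.5 CPM) were below all 3 WT libraries of that dose (91.4, 104 and 109 CPM). In the same libraries CASP1 and CASP2, which mark the endodermis, also fell in both genotypes. The 5 shoot apex and stomata markers were called higher in xpf-3, where 33.4% of all genes were. In WT 0 of 5 were called higher and 1 lower, where 12.9% and 12.7% of all genes were. After the low dose their sums overlapped, between 6.71 and 9.22 CPM in xpf-3 and between 4.93 and 9.75 CPM in WT. The dark sums ran from 1.77 to 3.21 CPM in xpf-3 and from 3.79 to 12.1 CPM in WT. The part of these shifts in the changes of CRY1 and CRY2 was not tested. Both calls held without the libraries that stand apart.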

How the results depend on the processing

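Of 75 values (5 genes in 15 comparisons), 22 were called, 5 of these lost the call in some alternative, 9 others gained one, and no called value changed sign; 34 uncalled values, of main size up to 0.75, changed sign somewhere. Members called in WT at the low dose numbered 1, and 0 with DESeq2 size factors, no low-count filter, the compared groups alone or the authors' factors, 3 with the replicate block within genotype or without the libraries that stand apart, and between 0 and 2 with single libraries left out. For uvr8-6 at the low dose they numbered 0, and 1 with the block within genotype, between 0 and 1 with single libraries left out. For uvr8-6 against WT in the dark they numbered 2, and 1 with the compared groups alone, 4 with the block within genotype, and between 2 and 3 with single libraries left out. The 4 depends on the numbering of the libraries, since that fit compares genotypes at replicate 1, and is no check of the 2. The call of CRY3 there, made in no other fit, is among the 9 gained. For xpf-3 minus WT at the high dose they numbered 0, and 1 with DESeq2, the replicate block or the block within genotype, between 0 and 1 with single libraries left out. For uvr8-6 minus WT at the high dose they numbered 0, and 1 without the libraries that stand apart, between 0 and 1 with single libraries left out. With single libraries left out, the range was 0 to 2 for xpf-3 between doses (1 with all) and 2 to 3 for WT and for uvr8-6 at the high dose (3 with all). The replicate block gave PHR1 1.03 in WT at the low dose (adjusted p = 0.0379 with edgeR) and changed no call of a member other than CRY2 in xpf-3 minus WT at the high dose.

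The PHR1 call in WT at the high dose (1.09) was lost without WT dark replicate 2 (0.93, adjusted p = 0.0589) or 3 (0.86, adjusted p = 0.0766), and ranged up to 1.60. The PHR1 call in uvr8-6 at the high dose (1.01) was lost without the filter (0.91, adjusted p = 0.0504), with the compared groups alone (0.95, adjusted p = 0.0687), and without uvr8-6 dark replicate 1 (0.79), 3 (0.77) or high-dose replicate 2 (0.82), and ranged up to 1.59. PHR1 in uvr8-6 dark against WT dark was called without uvr8-6 dark replicate 2 (-1.24, adjusted p = 0.038).

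Apart from leaving out single libraries, genes called over the whole table moved by over 1.5 times in 7 comparisons. For xpf-3 against WT in the dark 33 became 447 with DESeq2, 67 with the replicate block, 1 with the compared groups alone, 9 with the block within genotype and 51 without the libraries that stand apart. With the compared groups alone, 5064 became 3023 in WT and 1090 became 661 in uvr8-6 at the low dose, 6223 became 2616 for uvr8-6 against WT in the dark, 1849 became 732 for xpf-3 minus WT at the high dose, and for uvr8-6 minus WT 156 became 53 and 1625 became 602 at the low and high dose; fewer libraries enter that fit. With the block within genotype 1090 became 1742 and 6223 became 4096. The 4096, like the 9 for xpf-3 against WT in the dark, depends on which library of each genotype is numbered 1. Without the libraries that stand apart 1849 became 830, 156 became 335 and 1625 became 2488, and with DESeq2 156 became 257. With single libraries left out, the counts ran from 3357 to 6272 (5854 with all) and 177 to 2316 (1849) for xpf-3 minus WT and from 57 to 318 (156) and 896 to 2377 (1625) for uvr8-6 minus WT at the low and high dose, from 14 to 63 (33) and 3668 to 7827 (6223) for xpf-3 and uvr8-6 against WT in the dark, between doses in xpf-3 from 2448 to 3077 (3855), and at the low dose in uvr8-6 from 410 to 1347 (1090). Apart from the smaller number of libraries with the compared groups alone, the causes were not tested. Counts of PHR1 and UVR3 under 100 a library limit what can be seen of them, and the intervals cover the spread between libraries, not cultures.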
